A study of Mus musculus with 16 samples.

Results

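The 36 genes described here encode proteins of glucose use and of the response to low oxygen. They comprise 4 transporters of glucose or lactate, 11 genes of upper glycolysis and its regulators, 7 genes of lower glycolysis and lactate dehydrogenase, 3 oxygen-sensing genes and 11 other genes known as hypoxia targets. They were chosen by name, with earlier results of these arrays known, and are 36 of the 17771 genes tested. Earlier fits had shown them moving together in differences within slides 2 and 3 of the array layout and in fits that took the slide as a block, which draw on the same arrays as the comparisons below, so a shared direction of the list is not independent evidence here. All 36 were measured, and the probe that stood for each gene was well above background on 16 of 16 arrays, with 0 saturated.

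Glycolysis splits glucose into pyruvate, and lactate dehydrogenase turns pyruvate into lactate that monocarboxylate transporters carry out of the cell. When oxygen is scarce, prolyl hydroxylases no longer mark the alpha subunit of hypoxia-inducible factor (HIF) for destruction, and HIF raises transcription of many of these genes through short DNA elements with the core ACGTG or GCGTG. The working heart burns mostly fatty acids, and cultured cardiomyocytes rely more on glucose. Glucocorticoids also act on glucose metabolism, in some tissues by raising regulators of glycolysis and in others by opposing glucose uptake.

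The cells were HL-1, an immortalised mouse atrial cardiomyocyte line that goes on contracting in culture, so every array sampled the same line in the same medium. The arrays carried 4 labels, with 4 arrays each: the synthetic glucocorticoid dexamethasone at 100 nM (Dex), the estrogen estradiol at 10 nM (E2), both at these doses (Dex+E2), and PBS (vehicle), all for 6 h. No label names a change of oxygen or glucose. The title poses the question of antagonism between the hormones in heart muscle cells, and the design text gives 4 independent experiments. The array titles number the arrays 1 to 4 within a label without saying whether a number marks an experiment, so p-values measure the spread between these arrays.

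A level is the log2 background-subtracted intensity relative to the 75th percentile of its array, so levels of different genes cannot be set against each other. The 75th percentile lay between 402 and 557 intensity units, and 58.6% to 65.6% of the 41174 probes were well above background on an array. Per1, a clock gene that glucocorticoids induce, went against 4 labels: it was high on Dex 1, 2 and 4, Dex+E2 1, 2 and 4, E2 4 and Vehicle 4 (1.75 to 1.99), and low on the other 8 arrays (-1.29 to -0.75). Each group is therefore named below as the arrays labelled so, and the counts over the 36, Slc2a1 and Pfkfb3 are also given without Dex 3, Dex+E2 3, E2 4 and Vehicle 4. Of 10 cardiomyocyte markers, 9 were well above background on all 16 arrays, as were 4 of 6 fibroblast markers, 0 of 4 endothelial markers and 1 of 4 macrophage markers. Not well above background on any array were 1 fibroblast marker (Lum), 2 endothelial markers (Pecam1 and Cdh5) and 2 macrophage markers (Ptprc and Adgre1).

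The arrays lay on slides of 4. Slide 1 held Dex 1 and 2 with Vehicle 1 and 2, slide 2 held E2 1 and 2 with Vehicle 3 and 4, slide 3 held Dex+E2 1 and 2 with Dex 3 and 4, and slide 4 held Dex+E2 3 and 4 with E2 3 and 4. Slides 2 and 3 thus set arrays numbered 1 and 2 of one label against arrays numbered 3 and 4 of another, whereas slides 1 and 4 each held a single number class. Array number and label cannot be told apart within slides 2 and 3. All vehicle arrays lay in positions 1 and 2 of their slide, and all Dex+E2 arrays in positions 3 and 4. No fit of Dex+E2 against vehicle given here held a position term, so none of them tells position and label apart.

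The stretches upstream of 5 genes on which the results turn are shown because they carry the HIF core elements. Each is the 250 bases before a gene's annotated start on its own strand, 5′ to 3′, from RefSeq's GRCm38.p6, with ACGTG or GCGTG on either strand in capitals, and none includes transcribed sequence of that start. Bnip3 (chr7:138909507-138909756, minus strand) and Ankrd37 (chr8:45999851-46000100, minus strand) had the widest and the third widest difference by array number, P4ha2 (chr11:54100674-54100923, plus strand) had the smallest p of the 36 in the slide test, Pgk1 (chrX:106186850-106187099, plus strand) separated the arrays without overlap, and Pfkfb3 (chr2:11502091-11502340, minus strand; 1 of its 2 windows in the table) was high on E2 4 and Vehicle 4.
Bnip3: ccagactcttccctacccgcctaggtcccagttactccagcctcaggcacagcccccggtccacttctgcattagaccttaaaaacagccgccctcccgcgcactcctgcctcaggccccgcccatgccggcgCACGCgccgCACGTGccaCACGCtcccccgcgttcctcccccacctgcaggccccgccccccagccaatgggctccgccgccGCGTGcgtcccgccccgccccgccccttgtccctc
Ankrd37: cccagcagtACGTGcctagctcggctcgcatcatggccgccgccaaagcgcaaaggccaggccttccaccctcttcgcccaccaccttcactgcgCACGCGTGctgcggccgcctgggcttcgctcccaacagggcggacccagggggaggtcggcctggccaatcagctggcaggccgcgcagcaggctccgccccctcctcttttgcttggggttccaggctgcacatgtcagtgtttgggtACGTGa
P4ha2: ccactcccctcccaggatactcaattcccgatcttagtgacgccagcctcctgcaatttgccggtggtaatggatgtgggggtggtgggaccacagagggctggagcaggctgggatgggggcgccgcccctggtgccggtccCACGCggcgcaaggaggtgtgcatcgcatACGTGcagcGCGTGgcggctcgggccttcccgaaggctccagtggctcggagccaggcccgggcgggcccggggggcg
Pgk1: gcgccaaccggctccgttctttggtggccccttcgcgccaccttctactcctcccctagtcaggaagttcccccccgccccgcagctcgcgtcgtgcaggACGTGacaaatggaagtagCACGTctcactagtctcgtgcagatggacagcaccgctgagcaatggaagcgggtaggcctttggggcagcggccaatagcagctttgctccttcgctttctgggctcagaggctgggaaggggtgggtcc
Pfkfb3: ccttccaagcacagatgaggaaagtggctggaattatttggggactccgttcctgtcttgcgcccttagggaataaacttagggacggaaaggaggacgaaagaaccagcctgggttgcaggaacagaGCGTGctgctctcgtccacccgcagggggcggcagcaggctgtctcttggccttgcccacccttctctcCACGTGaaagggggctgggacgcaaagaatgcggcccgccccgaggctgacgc

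Bnip3 held 5 such cores, Ankrd37 4, P4ha2 3, Pgk1 2 and Pfkfb3 3, where a CACGTG counts as 2 overlapping cores because it reads ACGTG on both strands. In Bnip3 the cores began 117, 108, 107, 99 and 35 bases before the start. A promoter window was found for 33 of the 36 genes. Of these, 31 (93.9%) held ACGTG or GCGTG in at least 1 window, against 41.5% of all 27025 genes with a window. Counted per window it was 40 of 48 (83.3%), against 38.6% of all 32851. The list was chosen for genes of glycolysis and known hypoxia targets, so this excess is no independent result. CACGTG alone was in 6 of 33 (18.2%), against 6.86% of all genes. AGAACA followed after any 3 bases by TGTTC, a near-full glucocorticoid response element searched on both strands, was in 0 of 33, against 9 of the 27025. The cores were upstream of 15 of the 16 genes called lower on arrays 3 and 4 below, and of 16 of the 17 others with a window. As 31 of the 33 held a core, this count could hardly set the groups apart. Counted separately, ACGTG was upstream of 8 of the 16 and 13 of the 17, GCGTG of 11 and 11, and CACGTG of 1 and 5. These splits were not tested.

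None of the 36 genes passed the test in any of the 6 comparisons of labels, and neither did any other gene (limma, Benjamini-Hochberg over 17771 genes, all 16 arrays). In Dex against vehicle, percent called was 0% of all genes, and at an unadjusted p under 0.05 there were 3 of the 36 (2 higher, 1 lower), against 10.9% of all genes. The median difference of the 36 was 0.05, against -0.03 over all genes, and 22 of 36 were positive. In E2 against vehicle 0 of the 36 were under an unadjusted 0.05, against 3.84% of all genes, and the median was -0.00. In Dex+E2 against vehicle it was 1 of 36 against 5.57%, with a median of 0.04. Dex+E2 against Dex gave 1 of 36 (3.19% of all genes, median 0.01), Dex+E2 against E2 gave 2 of 36 (4.02%, median 0.04), and the Dex by E2 interaction gave 0 of 36 (3.72%, median 0.01). When each array in turn was left out, the median of the 36 lay between -0.03 and 0.13 for Dex against vehicle, below 0 without Vehicle 3 or Dex 2. It lay between -0.07 and 0.10 for E2 against vehicle and between -0.00 and 0.10 for Dex+E2 against vehicle. The ranges were -0.04 to 0.06 for Dex+E2 against Dex, -0.01 to 0.09 for Dex+E2 against E2 and -0.09 to 0.10 for the interaction, so in all 6 the sign depended on the arrays kept. The comparisons against vehicle share the vehicle arrays, so these values are not independent of each other.

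The lowest unadjusted p belonged to Car9, the membrane carbonic anhydrase that is a classic HIF target. It stood at -4.02, -3.64, -3.95 and -3.94 on the arrays labelled Dex 1 to 4, and at -3.53, -3.46, -3.26 and -3.67 on those labelled vehicle. Dex 1, 3 and 4 lay below every other array, and Dex 2 overlapped the vehicle arrays. The difference was -0.41 ± 0.11 (SE), with an adjusted p of 0.451 by limma. Car9 averaged -3.47 ± 0.05 on the Dex+E2 arrays and -3.38 ± 0.05 on the E2 arrays (SD, n = 4 each), so Dex+E2 against Dex gave 0.42 ± 0.11 (SE, adjusted p = 1.000). 

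Among the transporters, Slc2a1, which encodes the glucose carrier GLUT1, had the widest label differences. It averaged 4.13 ± 0.37 on the Dex arrays, 4.18 ± 0.29 on the Dex+E2 arrays, 3.68 ± 0.28 on the E2 arrays and 3.76 ± 0.39 on the vehicle arrays (SD, n = 4 each). Its difference was 0.37 ± 0.22 for Dex against vehicle, 0.42 ± 0.22 for Dex+E2 against vehicle and 0.50 ± 0.22 for Dex+E2 against E2 (SE), and limma's adjusted p was 0.540, 0.715 and 1.000. Without Dex 3, Dex+E2 3, E2 4 and Vehicle 4 these differences were 0.60, 0.62 and 0.76 (SE 0.19 each), with limma's adjusted p at 0.135, 0.144 and 0.0860. Slc16a1, encoding the monocarboxylate transporter MCT1, read 0.24 ± 0.11 for Dex against vehicle and 0.34 ± 0.11 for Dex+E2 against vehicle (SE), with adjusted p-values of 0.455 and 0.715. Another of its probes had the opposite sign in the comparison of array numbers below. Slc16a3, encoding the lactate exporter MCT4, averaged 4.75 ± 0.37 on the Dex+E2 arrays and 4.39 ± 0.51 on the vehicle arrays (SD, n = 4 each), a difference of 0.36 ± 0.24 (SE, adjusted p = 0.717).

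Pfkfb3 encodes a bifunctional enzyme that makes fructose 2,6-bisphosphate, the strongest activator of phosphofructokinase. It stood at 1.48, 1.33, 1.35 and 1.39 on Dex 1 to 4 and at 1.33, 1.44, 1.24 and 1.42 on Dex+E2 1 to 4. On E2 1 to 4 it stood at 0.93, 1.04, 1.11 and 1.54, and on Vehicle 1 to 4 at 0.98, 0.99, 1.05 and 1.46. E2 4 lay above every Dex and Dex+E2 array and Vehicle 4 lay among the Dex arrays, and Per1 was high on both. The other 6 E2 and vehicle arrays lay below all Dex and Dex+E2 arrays. Over all 16 arrays Dex against vehicle gave 0.27 ± 0.12 (SE, limma adjusted p = 0.453).

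Without Dex 3, Dex+E2 3, E2 4 and Vehicle 4, Pfkfb3 was the 1 gene of the 36 that limma called: it was higher by 0.40 ± 0.07 in Dex against vehicle (adjusted p = 0.0152), by 0.39 ± 0.07 in Dex+E2 against vehicle (adjusted p = 0.0147) and by 0.37 ± 0.07 in Dex+E2 against E2 (SE, adjusted p = 0.0242). Among all genes these fits called 2.43%, 2.59% and 1.93%, so 1 of 36 is near the background. The arrays left out were chosen by a measured hormone-responsive gene, so such calls describe these arrays and are no test of the labels. In that setting limma called 0 of the 36, and 0 genes in all, for E2 against vehicle, for the interaction and for Dex+E2 against Dex, with 1003, 754 and 432 genes at an unadjusted p under 0.05.

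By Per1 state, given as ranges alone, no gene of the 36 separated the 8 high from the 8 low arrays, against 2.02% of all genes that lay higher and 2.07% that lay lower without overlap. Pfkfb3 ranged from 1.33 to 1.54 with a median of 1.43 on the Per1-high arrays and from 0.93 to 1.35 with a median of 1.04 on the Per1-low arrays. Only Dex 3 kept these ranges from being separate. Slc2a1 ranged from 3.94 to 4.43 (median 4.27) on the Per1-high arrays and from 3.19 to 4.08 (median 3.68) on the Per1-low arrays. Hif1a, which encodes the oxygen-regulated subunit of HIF, ran the other way, from 3.66 to 3.88 (median 3.82) against 3.80 to 4.18 (median 4.03).

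**Figure D1:**
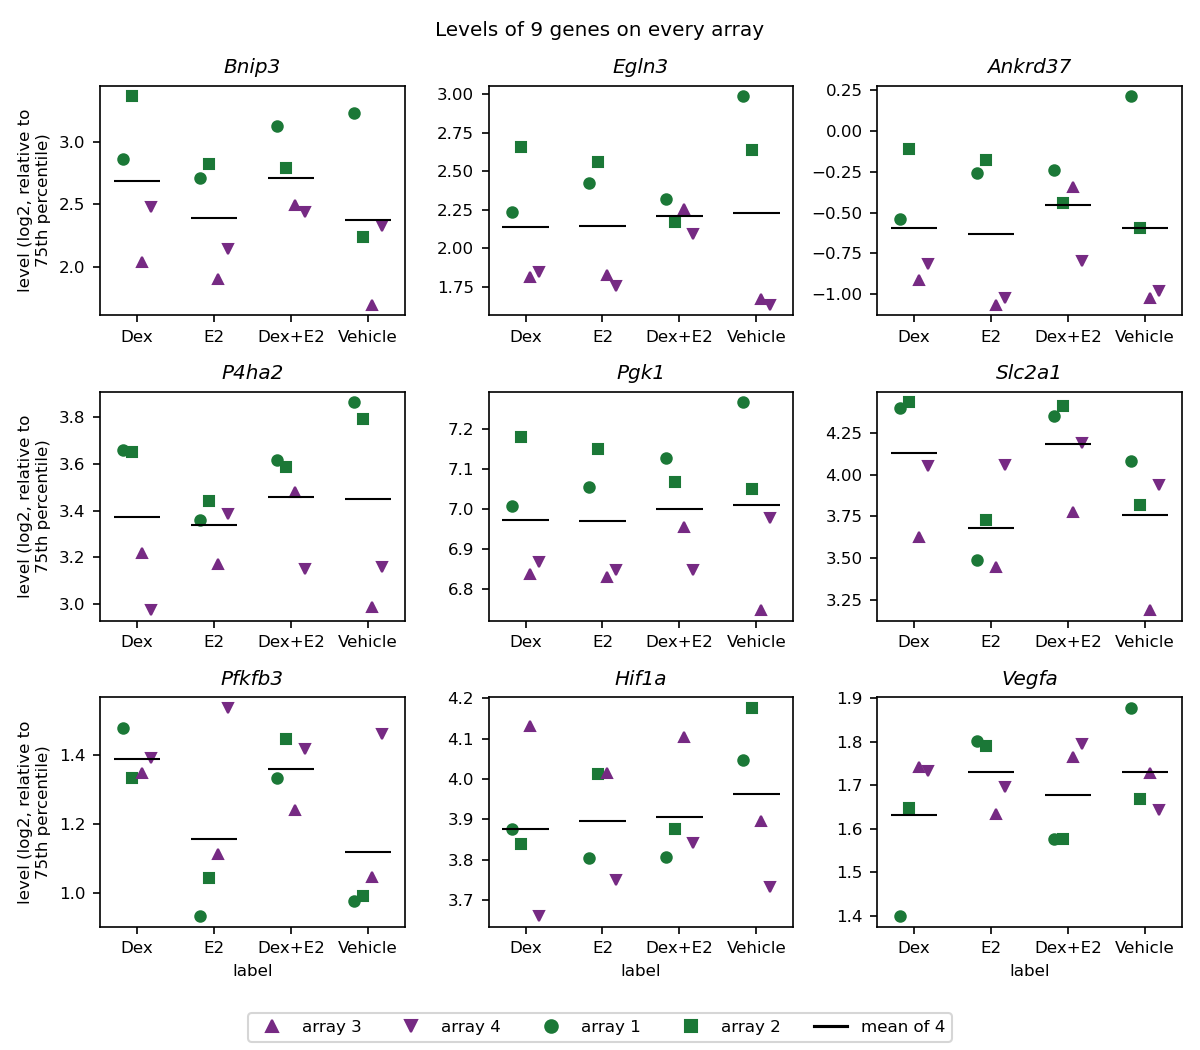
Levels (log2 relative to the array's 75th percentile, vertical axis of each panel on its own scale) of 9 genes on all 16 arrays by label, with a line at the mean of 4 arrays. Purple triangles (arrays 3 and 4) lay at the bottom of most panels of the upper row, and for Pgk1 all 8 lay below the 8 green symbols (arrays 1 and 2), whereas Vegfa and Hif1a showed no such order and Pfkfb3 was high on E2 4 and Vehicle 4.

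By array number, unlike by label, many of the 36 genes were called. In a limma fit with treatment as the other term, 16 of the 36 genes were lower on the 8 arrays numbered 3 and 4 than on the 8 numbered 1 and 2, and 0 were higher. Over all genes 6.58% were called, 4.2% lower and 2.37% higher. The median difference of the 36 was -0.21, against -0.02 over all genes, and 29 of 36 were negative. At an unadjusted p under 0.05 there were 24, all lower, against 13.9% of all genes lower and 24.1% in either direction. The list was chosen with differences on slides 2 and 3 known, and these set the same number classes against each other. Counts of the 36 by array number, here and below, are therefore no test of the list. The titles give 2 arrays of each number class to every label, so the labels cancel in this comparison, and Per1 was high on 4 of 8 arrays of each class.

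Other measures moved with the number class. The 75th percentile was between 418 and 557 intensity units (median 505) on arrays 3 and 4, and between 402 and 499 (median 444) on arrays 1 and 2. Of arrays 3 and 4, 6 of 8 lay in positions 1 and 2 of their slide, against 2 of 8 of arrays 1 and 2. The log2 summed level of the 6 fibroblast markers was 4.61 to 4.996 on arrays 3 and 4 and 5.05 to 5.45 on arrays 1 and 2, without overlap, while that of the 10 cardiomyocyte markers was 9.19 to 9.43 and 9.35 to 9.45. In cultures measured in bulk, fewer cells of a type and less RNA per cell cannot be told apart. The part of each measure in the result was not tested, beyond the fits with quantile normalization and with position given below. If arrays of the same number came from the same experiment, the 8 arrays of a class stand for 2 experiments and the p-values are too small.

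**Figure D2:**
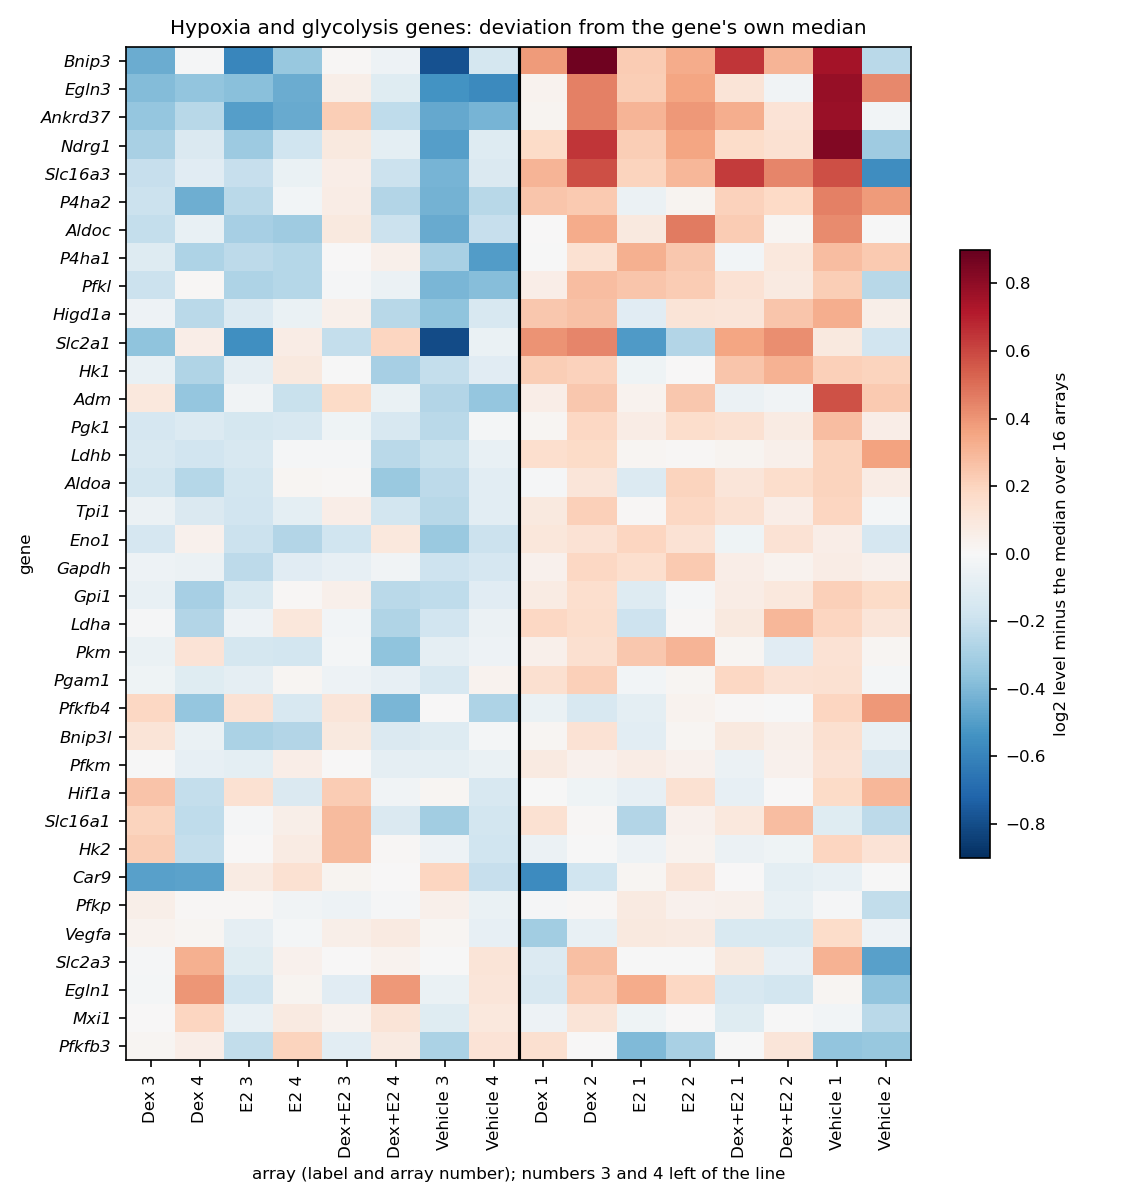
Deviation of each of the 36 genes (rows) from its own median over 16 arrays, in log2 units, with arrays 3 and 4 left of the line and arrays 1 and 2 right of it. The upper rows, from Bnip3 (-0.71) down, were mostly blue on the left and red on the right, with Vehicle 2 and Dex+E2 3 as the arrays that broke the pattern most often, and the bottom rows showed no such split.

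Bnip3 encodes a mitochondrial protein that starts mitophagy when oxygen is low. On arrays 3 and 4 it stood at 2.04 and 2.48 (Dex), 1.90 and 2.15 (E2), 2.49 and 2.44 (Dex+E2), and 1.70 and 2.32 (vehicle). On arrays 1 and 2 it stood at 2.87 and 3.36 (Dex), 2.71 and 2.82 (E2), 3.13 and 2.79 (Dex+E2), and 3.23 and 2.24 (vehicle). Vehicle 2 was the exception: the other 7 arrays numbered 1 and 2 lay above all 8 numbered 3 and 4. The difference was -0.71 ± 0.14 (SE, limma adjusted p = 0.0127), or 38.7% lower, and Bnip3 also had the widest spread of the 36 over all arrays (SD 0.48). Bnip3l, its paralogue with a like role, differed by -0.12 ± 0.05 (SE, adjusted p = 0.166).

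Of the 3 oxygen-sensing genes only Egln3 was called. It encodes the prolyl hydroxylase PHD3, itself a HIF target that closes a feedback loop. Its levels on arrays 3 and 4 were 1.81 and 1.85 (Dex), 1.83 and 1.76 (E2), 2.26 and 2.09 (Dex+E2), and 1.67 and 1.63 (vehicle), against 2.24 and 2.66 (Dex), 2.43 and 2.56 (E2), 2.32 and 2.17 (Dex+E2), and 2.99 and 2.64 (vehicle) on arrays 1 and 2. The classes overlapped only through Dex+E2 3, which lay above Dex 1 and Dex+E2 2. The difference was -0.64 ± 0.12 (SE, adjusted p = 0.0107), 35.7% lower, and by label it was -0.62 for Dex, -0.70 for E2, -0.07 for Dex+E2 and -1.16 for vehicle. Egln1, encoding the main oxygen sensor PHD2, differed by 0.07 ± 0.11 (SE, adjusted p = 0.714). Hif1a ranged from 3.66 to 4.13 (median 3.87) on arrays 3 and 4 and from 3.80 to 4.18 (median 3.88) on arrays 1 and 2, a difference of -0.04 ± 0.08 (SE, adjusted p = 0.801).

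Of the 11 other hypoxia targets 5 were called lower. Besides Bnip3 these were Ankrd37, a small ankyrin-repeat protein gene used as a hypoxia marker, P4ha1 and P4ha2, the catalytic subunits of collagen prolyl hydroxylase, and Higd1a, a mitochondrial protein gene. Ankrd37 ranged from -1.06 to -0.34 with a median of -0.95 on arrays 3 and 4, and from -0.59 to 0.21 with a median of -0.25 on arrays 1 and 2. Only Dex+E2 3 stood among the upper class, and the difference was -0.60 ± 0.12 (SE, adjusted p = 0.0141). P4ha2 ranged from 2.97 to 3.48 (median 3.17) on arrays 3 and 4, against 3.36 to 3.86 (median 3.63) on arrays 1 and 2, with a difference of -0.43 ± 0.09 (SE, adjusted p = 0.0125). For P4ha1 and Higd1a the differences were -0.36 ± 0.08 and -0.31 ± 0.07 (SE), with adjusted p-values of 0.0186 and 0.0209.

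The remaining hypoxia targets split. Ndrg1, a stress-induced gene, had a difference as wide as some called genes, -0.47 ± 0.14 (SE), but also a wide spread (1.43 to 2.01 on arrays 3 and 4, against 1.60 to 2.76 on arrays 1 and 2), and its adjusted p was 0.0590. Adm, encoding the vasodilator peptide adrenomedullin, read -0.29 ± 0.10 (SE, adjusted p = 0.114). Vegfa, encoding the angiogenic growth factor and among the best-known HIF targets, ranged from 1.63 to 1.80 (median 1.73) on arrays 3 and 4 and from 1.40 to 1.88 (median 1.66) on arrays 1 and 2, a difference of 0.05 ± 0.06 (SE, adjusted p = 0.649). Car9 differed by 0.00 ± 0.08 (SE, adjusted p = 0.981), and Mxi1, encoding a Myc antagonist, by 0.09 ± 0.05 (SE, adjusted p = 0.324). Mxi1 was the only one of the 36 (2.78%) that was higher on arrays 3 and 4 in all 4 labels, against 9.22% of all genes. It had the third smallest spread of the list (SD 0.11).

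In upper glycolysis 5 of 11 genes were called lower. Hk1, a hexokinase that phosphorylates glucose, differed by -0.29 ± 0.07 (SE, adjusted p = 0.0244), and 5 of its probes gave differences between -0.29 and -0.18. Hk2, the insulin- and hypoxia-responsive hexokinase, averaged 3.95 ± 0.17 on arrays 3 and 4 and 3.95 ± 0.09 on arrays 1 and 2 (SD, n = 8 each; adjusted p = 0.997). Of the phosphofructokinase genes, the liver form Pfkl differed by -0.32 ± 0.07 (SE, adjusted p = 0.0186). The muscle form Pfkm (4.16 ± 0.06 on arrays 3 and 4, 4.23 ± 0.08 on arrays 1 and 2; SD, n = 8 each) and the platelet form Pfkp (2.58 ± 0.04 and 2.57 ± 0.09) had the smallest spreads of the 36, with SDs over 16 arrays of 0.08 and 0.07. The aldolases Aldoa and Aldoc differed by -0.24 ± 0.06 (adjusted p = 0.0372) and -0.40 ± 0.09 (SE, adjusted p = 0.0222), and Tpi1, triose-phosphate isomerase, by -0.22 ± 0.05 (SE, adjusted p = 0.0201). Gpi1, glucose-6-phosphate isomerase, missed the threshold at -0.21 ± 0.06 (SE, adjusted p = 0.0556), and the bifunctional regulators Pfkfb3 (0.13 ± 0.08) and Pfkfb4 (-0.14 ± 0.10) had adjusted p-values of 0.368 and 0.435.

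All 7 genes of lower glycolysis and lactate dehydrogenase had negative differences, within a narrow band from -0.25 to -0.16, and 4 were called. Pgk1, which makes the first ATP of the pathway, ranged from 6.75 to 6.98 (median 6.85) on arrays 3 and 4 and from 7.01 to 7.27 (median 7.10) on arrays 1 and 2. Gapdh ranged from 6.48 to 6.68 (median 6.63) against 6.75 to 6.95 (median 6.78), and Ldhb, encoding the heart form of lactate dehydrogenase, from 6.05 to 6.28 (median 6.14) against 6.30 to 6.65 (median 6.39). These were the 3 of 36 genes (8.33%) whose classes did not overlap, and 1.04% of all genes lay lower in that way. Their differences were -0.25 ± 0.05, -0.21 ± 0.04 and -0.25 ± 0.05 (SE), with limma adjusted p-values of 0.00969, 0.0127 and 0.0184. Eno1, enolase, differed by -0.22 ± 0.06 (SE, adjusted p = 0.0445). Ldha, the form linked to lactate output, ranged from 7.09 to 7.46 (median 7.31) on arrays 3 and 4 and from 7.18 to 7.66 (median 7.49) on arrays 1 and 2, a difference of -0.20 ± 0.07 (SE, adjusted p = 0.117). Pgam1, phosphoglycerate mutase, and Pkm, pyruvate kinase, read -0.16 ± 0.04 and -0.20 ± 0.06 (SE), with adjusted p-values of 0.0509 and 0.0730.

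Of the transporters 1 of 4 was called. Slc16a3 ranged from 4.10 to 4.58 (median 4.36) on arrays 3 and 4 and from 3.96 to 5.15 (median 4.89) on arrays 1 and 2, where Vehicle 2 was the lowest of all 16. The difference was -0.47 ± 0.13 (SE, adjusted p = 0.0447), and it lost the call when any of 15 arrays was left out. Slc2a1 differed by -0.30 ± 0.14 (SE, adjusted p = 0.190), Slc16a1 by -0.03 ± 0.08 and Slc2a3, encoding GLUT3, by 0.05 ± 0.10.

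**Figure D3:**
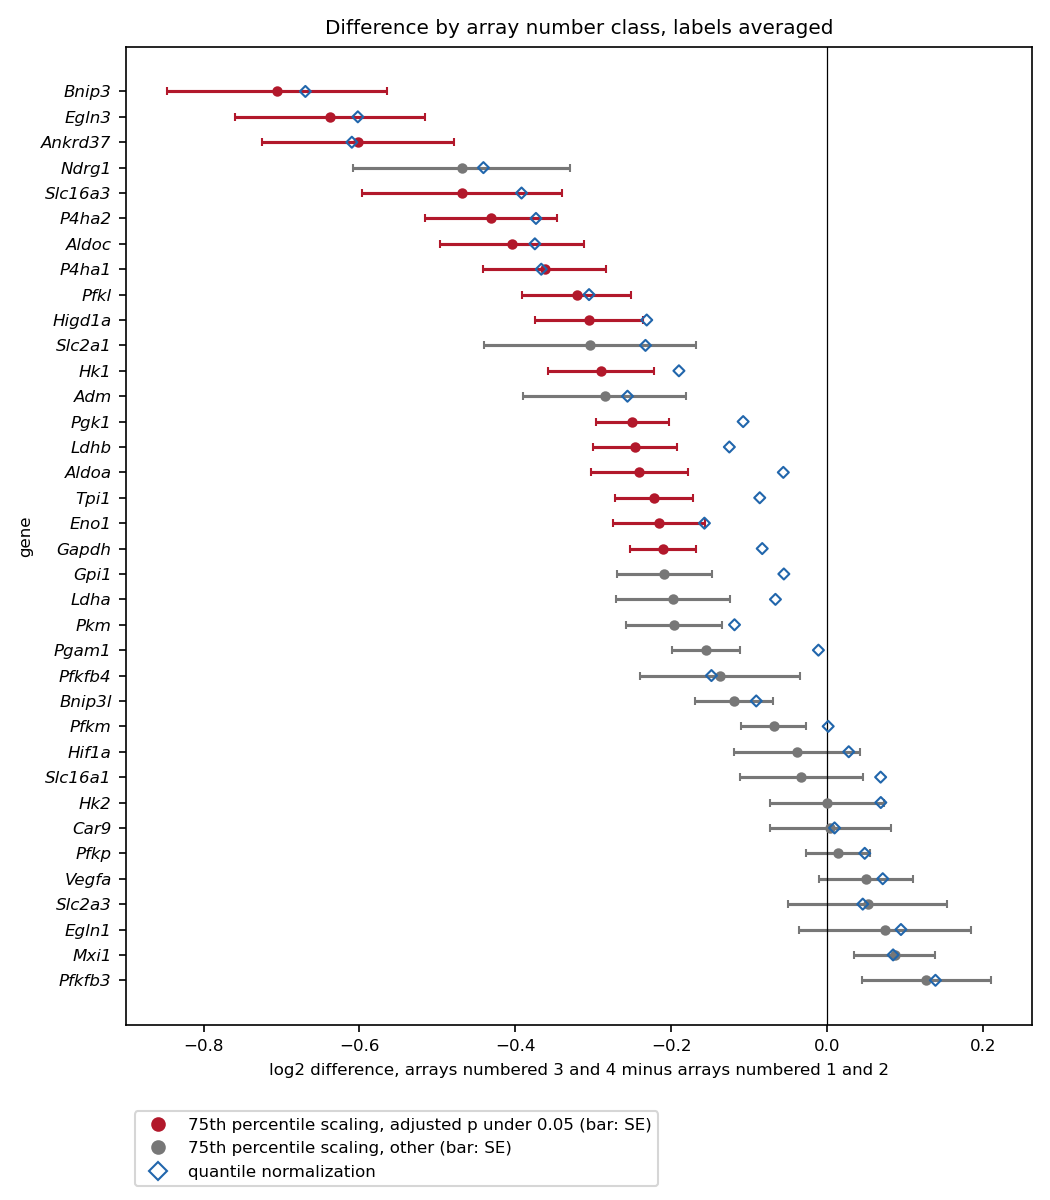
Log2 difference between arrays 3 and 4 and arrays 1 and 2 for each of the 36 genes (circles with SE, red where the adjusted p was under 0.05), with the value after quantile normalization as a blue diamond. Genes ran from -0.71 for Bnip3 to 0.13 for Pfkfb3, and diamonds moved toward 0 for the bright glycolytic genes but hardly for Bnip3, Egln3 and Ankrd37.

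The call depended on how the arrays were scaled for one section of the list. After quantile normalization 9 of the 36 were called lower: Hk1, Pfkl, Aldoc, Egln3, Bnip3, Ankrd37, P4ha1, P4ha2 and Higd1a. Over all genes 6.16% were called in either direction, 594 genes lower and 500 higher. The median over the 36 was -0.10. The genes that lost the call were Slc16a3, Aldoa, Tpi1, Gapdh, Pgk1, Eno1 and Ldhb. Of the 8 genes with a mean level over 6, 5 were called with scaling to the 75th percentile and 0 after quantile normalization, and their median difference was -0.22 and -0.07. All 315 genes over that level had a median difference of -0.13, which quantile normalization set to 0.00, whereas genes with a level under 0 had a median of 0.00 in both. Gapdh, Pgk1 and Ldhb read -0.08, -0.11 and -0.13 after quantile normalization, Slc16a3 -0.39 (adjusted p = 0.0650) and Eno1 -0.16 (adjusted p = 0.216). Bnip3, Egln3 and Ankrd37 differed by -0.67, -0.60 and -0.61 after quantile normalization, with adjusted p-values of 0.0151, 0.0139 and 0.0146.

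**Figure D4:**
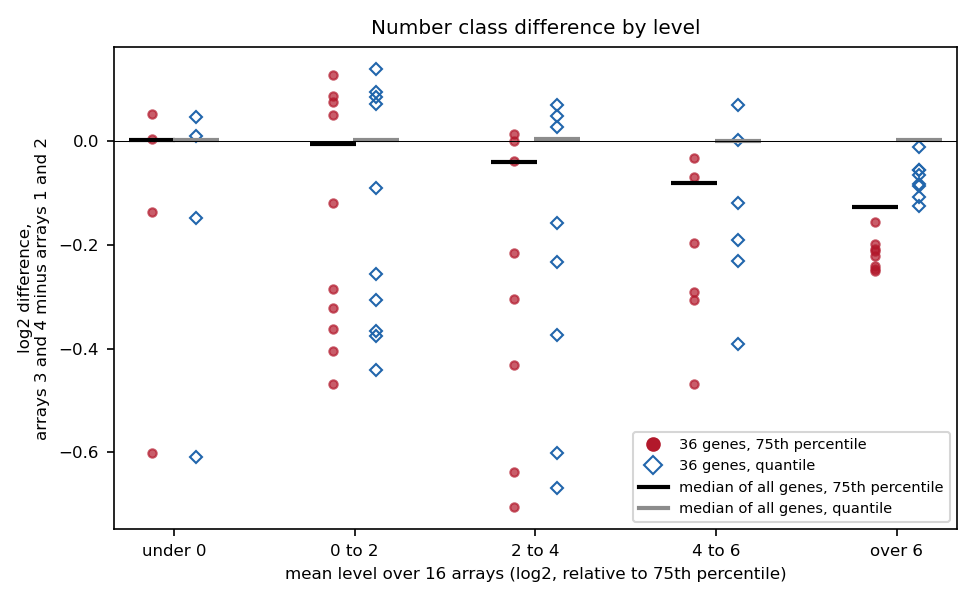
Log2 difference between arrays 3 and 4 and arrays 1 and 2 against the mean level of a gene, for the 36 genes (red circles, 75th percentile scaling; blue diamonds, quantile normalization) and for the median of all genes in each bin (black and grey bars). The black bars stood at 0.00 in the lowest bin and -0.13 in the highest, where all 8 genes lay below them.

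Position on the slide was added as a term because it ran with the number class. The number difference then had a median of -0.25 over the 36, and limma called 0 of them and 0.726% of all genes, with 18 of the 36 at an unadjusted p under 0.05, all lower. The position term itself called 0 genes and 0 of the 36, with 305 genes at an unadjusted p under 0.05. Among the Dex and E2 arrays position ran exactly with the number class, and among the vehicle and the Dex+E2 arrays it did not vary. The number difference of that fit thus came from the vehicle and Dex+E2 arrays alone. The position term had a median of 0.03 over the 36. It came from the Dex and E2 arrays, with the number difference taken as the same in all labels, which was not tested. Whether position or number class matters more was not tested either. Egln3 read -0.62 ± 0.18 (SE, adjusted p = 0.103) and Bnip3 -0.61 ± 0.20 (SE, adjusted p = 0.136) in that fit. Slide, number class and treatment could not be fitted together, so slide and number class cannot be told apart in a single fit.

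Without the 4 arrays on which Per1 went against the label, 15 of the 36 were called lower, 13 of them the same genes, with a median of -0.29. Over all genes 6% were called in either direction. When each array in turn was left out, between 9 and 17 of the 36 were called. Pfkl, Gapdh, Pgk1, Ldhb, Egln3, Bnip3, Ankrd37, P4ha1 and P4ha2 were called each time. The lowest count, 9, came without Dex 2, when Aldoc, Tpi1, Higd1a, Hk1, Aldoa, Eno1 and Slc16a3 lost the call. Hk1 also lost it without Vehicle 3, Dex 1 or Dex 4, Higd1a without Dex 1, and Aldoa and Eno1 without any of 13 arrays each.

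The difference was also taken within each label, where 2 arrays stand against 2 and no test was made. The median over the 36 was -0.25 on the Dex arrays, -0.12 on the E2 arrays, -0.14 on the Dex+E2 arrays and -0.29 on the vehicle arrays, and the median of all genes was -0.02, 0.04, -0.09 and -0.01. Both arrays 3 and 4 lay below both arrays 1 and 2 for 22 of the 36 genes with Dex, 19 with E2, 15 with Dex+E2 and 21 with vehicle, against 27.0%, 18.5%, 32.7% and 28.5% of all genes. The difference was negative in all 4 labels for 21 of the 36 (58.3%), against 14% of all genes. Counted per array, 31 of the 36 lay above their own median on Dex 2, 32 on E2 2 and 31 on Vehicle 1, and 5 did so on E2 3, Vehicle 3 and Vehicle 4. Dex+E2 3, with 23, was the array numbered 3 or 4 with the most, and Vehicle 2, with 16, the array numbered 1 or 2 with the fewest.

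Label differences were also taken within each slide. The list was chosen with such differences on slides 2 and 3 known, so the counts there are no test of it. On slide 2 E2 against vehicle gave a median of 0.18 over the 36, with 33 of 36 positive and 13 at an unadjusted p under 0.05 (all higher), against 8.16% of all genes. Egln3 led with 0.84, then Ankrd37 with 0.79 and Bnip3 with 0.76. On slide 3 Dex+E2 against Dex gave a median of 0.20, with 28 of 36 positive and 13 under 0.05 (all higher), against 12.2% of all genes, led by Bnip3 with 0.70 and Slc16a3 with 0.69. On slides 1 and 4, which held a single number class, Dex against vehicle gave a median of 0.03 and Dex+E2 against E2 one of 0.06, with 7 and 4 of the 36 under 0.05, against 15.8% and 3.65% of all genes. Limma called 0 of the 36 within any slide, and 45 of all genes (0.253%) on slide 1. Within a slide label and position cannot be told apart, and the fits of Dex+E2 against vehicle given here do not tell them apart.

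With slide as a block over all 16 arrays, the median of the 36 was 0.07 for Dex against vehicle, 0.22 for E2 against vehicle, 0.20 for Dex+E2 against vehicle, 0.21 for Dex+E2 against Dex and 0.04 for Dex+E2 against E2. At an unadjusted p under 0.05 there were 15 of 36 for E2 against vehicle, 15 for Dex+E2 against vehicle and 17 for Dex+E2 against Dex, all higher, against 8.09%, 5.51% and 11.8% of all genes, and 0 genes were called. These 3 comparisons draw on slides 2 and 3. The list was chosen with fits of this kind known, so their counts are no test of it. Dex against vehicle had 3 (9.85% of all genes), Dex+E2 against E2 1 (2.58%) and the interaction 0 (4.91%). With the number class as a term in place of the slide, the medians for E2 against vehicle, for Dex+E2 against vehicle and for Dex+E2 against Dex were those of the fit without a block: -0.00, 0.04 and 0.01.

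**Figure D5:**
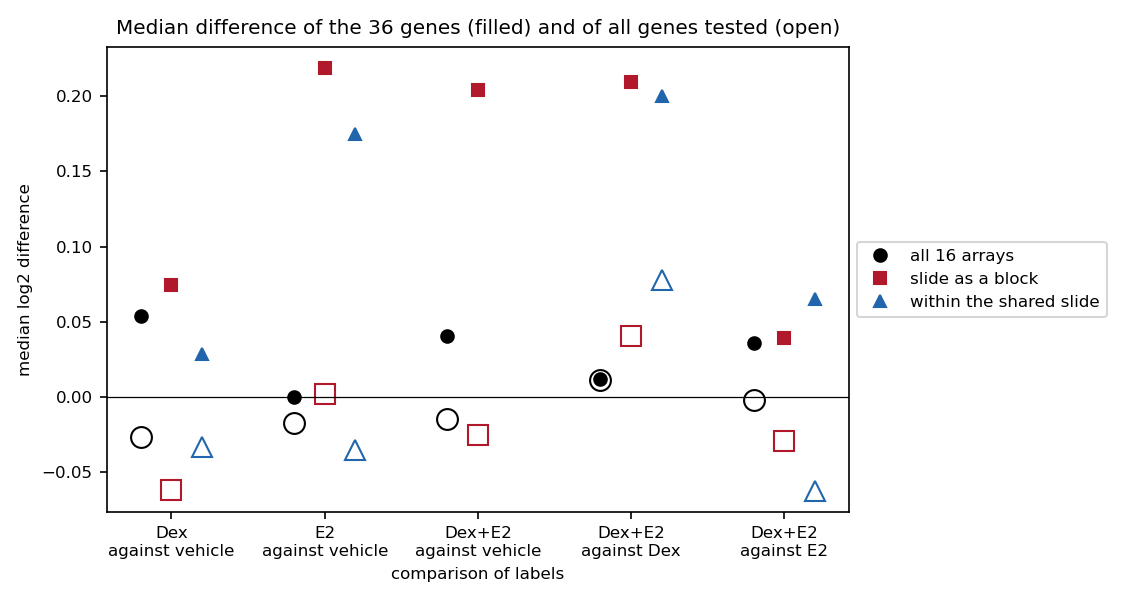
Median log2 difference of the 36 genes (small filled symbols) and of all genes tested (large open symbols) in 5 comparisons of labels, over all 16 arrays (black circles), with slide as a block (red squares) and within the shared slide (blue triangles; Dex+E2 and vehicle share none). The filled symbols stood near 0.20 where arrays 1 and 2 of one label met arrays 3 and 4 of another, and between -0.00 and 0.05 over all 16 arrays.

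The test of slide over all 4 slides, with treatment in the fit, called 1.06% of all genes and 3 of the 36 by limma's F-test: P4ha2 (adjusted p = 0.0161), Ldhb (0.0474) and Egln3 (0.0474). All 3 were also among the genes called by array number, which shares arrays with the slides.

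Arrays numbered 4 were also set against arrays numbered 3 within each label, as values with no test. Slc2a1, Slc2a3, Pfkfb3, Egln1 and Mxi1 were higher on array 4 in all 4 labels (5 of 36, 13.9%, against 9.66% of all genes), and Pfkfb4, Hif1a and Adm were lower in all 4 (3 of 36, 8.33%, against 15.6%). For Slc2a1 the difference between arrays 4 and 3 was 0.42 with Dex, 0.61 with E2, 0.41 with Dex+E2 and 0.75 with vehicle. For Hif1a it was -0.47, -0.27, -0.26 and -0.16 in the same labels. Per1 was high on all 4 arrays numbered 4 and low on all 4 numbered 3.

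Other genes of these pathways were taken from lists that hold none of the 36. Of 21 other glycolytic enzymes and transporters tested, 0 were called in any comparison of labels, and 0 were higher and 4 lower by array number: Gpd1, which links glycolysis to lipid synthesis (-0.44 ± 0.09), the muscle enolase Eno3 (-0.31 ± 0.07), the muscle phosphoglycerate mutase Pgam2 (-0.25 ± 0.07) and the mitochondrial pyruvate carrier gene Mpc1 (-0.22 ± 0.05; SE). Of 36 other HIF targets tested, 0 were higher and 9 lower. They included Loxl2, encoding a collagen cross-linking oxidase, at 1.08 ± 0.31 on arrays 3 and 4 and 1.73 ± 0.17 on arrays 1 and 2 (SD, n = 8 each; difference -0.65 ± 0.11, SE, limma adjusted p = 0.00617). Pdk1, the kinase that closes pyruvate dehydrogenase, differed by -0.56 ± 0.12 (SE, adjusted p = 0.0175), and Ero1a, an oxidase of protein folding, by -0.27 ± 0.05 (SE, adjusted p = 0.00724). Others were Cdkn1a (-0.36), Fam162a (-0.35), Tfrc (-0.29), Anxa2 (-0.24) and Mif (-0.23). The median of these 36 was -0.18, against -0.02 over all genes.

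Of 18 oxygen-sensing and HIF subunit genes, 0 were higher and 1 was lower, the clock gene Arntl (-0.29 ± 0.08, SE), with a list median of -0.01. Of 19 pentose phosphate and glycogen genes, 1 was higher, Pgm2 (0.22 ± 0.06), and 2 were lower, among them Pgm1 (-0.31 ± 0.08; SE), with a list median of 0.01. Of 33 genes of the tricarboxylic acid cycle and respiratory chain, 1 was higher, the muscle subunit gene Cox6a2 (0.29 ± 0.08), and 4 were lower, among them Cox7a1 (-0.30 ± 0.08), Cycs (-0.30 ± 0.08) and Sdhb (-0.22 ± 0.05; SE), with a list median of -0.10. In the fits of labels 0 genes of any of these lists were called. Genes with the widest spread of their list were Arnt2 (SD 0.71), Ak4 (0.47), Phkg1 (0.26) and Cox7a1 (0.22), and of these 4 Cox7a1 alone was called. After quantile normalization limma called, by array number, 3 of the 21 other glycolytic genes, 6 of the 36 other HIF targets, 1 of the 18 oxygen-sensing genes, 2 of the 19 pentose phosphate and glycogen genes and 2 of the 33 respiratory genes. Among those that lost the call were Pgam2 (adjusted p = 0.0876), Mpc1 (0.0655), Mif (0.159), Cdkn1a (0.0901), Anxa2 (0.0681), Pgm2 (0.0629), Cycs (0.0905) and Cox7a1 (0.0524). Sdhb (-0.13) and Cox6a2 (0.39) were the 2 respiratory genes still called.

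For 12 of the 36 genes more than 1 probe was well above background on all 16 arrays. The sign of the number difference was shared by all probes of 9 of them and differed in Pfkp, Slc16a1 and Vegfa. Of the 2 such probes of Slc16a1, the one used gave -0.03 and the other 0.36. For Vegfa the 4 probes ranged from -0.33 to 0.05, so the value of Vegfa above is that of a single probe.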

How the data were processed

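Transcript levels of 16 single-colour Agilent arrays of HL-1 cells were analysed. Spots were quantified with Agilent Feature Extraction 12, per the submitters' processing notes, and the deposited scanner files give for each spot a background-subtracted processed intensity on a linear scale, per the file headers. A deposited table of log2 values for the same arrays, whose columns share the same sorted values (median 4.698 each) and are not centred by gene, was used as an alternative. The method behind it is not stated in the sources used here, and its scale was read from the match of each column to its own array (lowest r = 0.999). Shared sorted values are what quantile normalization gives, so the deposited table is no independent check of that alternative.

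Control and flagged spots were left out, spots of a probe were averaged, and each array's 75th percentile was subtracted on the log2 scale. Probes well above background on every array of some label were kept (24453 probes), and the brightest probe stood for a gene (17771 genes). RefSeq accessions matched the GRCm38.p6 gene table for 28223 of 41174 probes; 13030 of the genes tested have a symbol. The number of arrays limits the precision.

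Comparisons were fitted in R 4.3.3 with limma 3.58.1 (lmFit, eBayes with a trend, Benjamini-Hochberg over all genes, two-sided, threshold 0.05) on all 16 arrays, and tested on simulated data. Arrays 3 and 4 were set against arrays 1 and 2 with treatment in the fit, and slides by the moderated F-test. The members and lists were chosen with earlier results of these data known. Named with values are the 6 genes with the largest and the 3 with the smallest spread, the 2 highest and 2 lowest in each comparison, every called gene, a panel (Hif1a, Vegfa, Slc2a1, Ldha, Pgk1, Gapdh), and from the other lists called genes and the gene with the largest spread, some of which are not reported here. Bnip3l, Slc16a1, Hk2, Gpi1, Adm, Pgam1 and Slc2a3 were added after their values were seen. Alternatives were quantile normalization, the deposited table, other filters, signals and probe rules, slide, number and position terms, and leaving arrays out. Slide and position were read from the array identifiers in the labels. Same-numbered arrays were checked for pairing: 13 of 24 pairs had a correlation of their deviations over 0.1 (range -0.16 to 0.46, median 0.12, against -0.04 for other pairs). All 6 pairs of arrays numbered 4 were over 0.1 (0.107 to 0.448). Pairing was to be taken only where every pair was over 0.1, so the numbers were not taken to pair the arrays.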

Additional observations from a re-analysis of the deposited data

Results flagged for a closer look

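Among 144 sets of 4 arrays (36 genes in 4 labels), 4 held an array far from the other 3 by Dixon's ratio of the gap to the range, and chance flags about 1 in 20 sets. Egln1, encoding PHD2, stood at 1.89 on Dex+E2 4, against 1.33, 1.36 and 1.40 on the other Dex+E2 arrays (ratio 0.881). Gpi1 stood at 7.40 on that same array, against 7.69, 7.71 and 7.74 (ratio 0.851). Adm stood at 2.14 on Dex+E2 3, against 1.90, 1.91 and 1.93 (ratio 0.872). Pfkfb3 stood at 1.46 on Vehicle 4, an array on which Per1 was high against its label, and at 0.98, 0.99 and 1.05 on the other vehicle arrays (ratio 0.856).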

How the results depend on the processing

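Slide, array number and position share arrays, label is part of each within a slide, and a single probe stood for a gene, so no alternative separates them fully. The planned normexp correction was not run, because the files lack mean signals and normexp on median signals left array medians between 79.0 and 902; median signal minus background plus 50 was used instead and, like the position term, was chosen after the data were seen.

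The replicate block called 0 genes and 0 of the 36 in all 6 comparisons of labels, as did the fit without it, and 9 of 16 arrays correlated best with an array of their own number. Among label comparisons, all genes called numbered 45 for Dex against vehicle within slide 1 and 1 for E2 against vehicle without the trend. Without the 4 arrays whose Per1 went against the label they numbered 432 (Dex against vehicle), 460 (Dex+E2 against vehicle) and 343 (Dex+E2 against E2), each with 1 of the 36. The median of the 36 moved to 0.219 (slide block) and 0.175 (slide 2) for E2 against vehicle, to 0.204 (slide block) for Dex+E2 against vehicle, and to 0.210 (slide block) and 0.200 (slide 3) for Dex+E2 against Dex.

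For arrays 3 and 4 against 1 and 2, genes called numbered 129 with position as a term and 629 with no filter on dim probes, and 519 to 1418 without one array, with 519 to 768 without Vehicle 1, 3 or 4, Dex 1, 2 or 4, or Dex+E2 2. Of the 36, 0 were called with position, 9 with quantile normalization, 9 in the deposited table, and 9 to 17 without one array. The cause was not tested. The median kept its sign throughout, from -0.24 to -0.20 without one array.

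Single genes turned sign as follows, none of them called. In E2 against vehicle P4ha2 read 0.319 (slide block) and 0.327 (slide 2), and ranged from -0.267 to 0.0261 without one array, above 0 without Vehicle 1 or Vehicle 2 (0.00184), and Bnip3l read 0.0272 (slide 2). With the slide block Pkm read 0.129 in Dex+E2 against vehicle and 0.0176 in Dex+E2 against Dex. Without the 4 arrays Ankrd37 read -0.00269 in Dex+E2 against Dex. By array number, quantile normalization and the deposited table gave 0.0277 and 0.0273 for Hif1a and 0.00129 and 0.000775 for Pfkm, Pfkp ranged from -0.0145 to 0.0266 without one array, below 0 without Vehicle 2 or Vehicle 3 (-0.00448), and Vegfa read -0.0892 as the mean of its probes.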
